A study of Mus musculus with 4 samples.

Results

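Iron and heme metabolism was followed through 9 genes of ingWAT, the inguinal white adipose tissue, a subcutaneous fat depot of the mouse. The 9 genes were chosen by symbol from the 19030 genes of the deposited expression table. They were *Tfrc*, *Slc11a2*, *Fth1*, *Ftl1*, *Slc40a1*, *Ireb2*, *Alas1*, *Ppox* and *Fech*, and all 9 were listed. Ctrl and cKO mice, of strain C57BL/6, aged 3 months and kept in the cold (4°C in the labels), were compared. Ctrl mice carried loxP-flanked *Oct3* (*Slc22a3*, a transporter that takes up catecholamines such as norepinephrine), and cKO mice carried the same alleles with Adiponectin-Cre, which is active in adipocytes, so that other cells of the depot kept the gene. Both genotypes received the cold challenge, and there was no group at room temperature. RNA was sequenced from 2 libraries of each genotype, and the sources used here do not give the number of mice in a library, so p-values measure only the spread between these libraries.

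Cells take up iron bound to transferrin through the transferrin receptor, keep it inside the ferritin shell and release it through ferroportin. When iron is scarce, the iron regulatory proteins bind hairpins called iron-responsive elements (IREs) in mRNAs: a hairpin near the start of an mRNA then blocks its translation, and hairpins near its end protect the transferrin receptor mRNA from decay. Mitochondria spend iron on heme and on iron-sulfur clusters, both needed by the respiratory chain, which is abundant in thermogenic fat.

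The IRE sequences are shown because they separate the genes by how iron can act on their mRNA. UTRs of coding transcripts (GENCODE M21, GRCm38, the assembly also called mm10) were searched on the transcript strand for the 6-base loop CAGTGN, its last base not G, between 5 paired stem bases on each side and with an unpaired C before the upper stem. The match was found in 119 of 21875 coding genes (0.544%) and in 4 of the 9 genes. In *Fth1*, *Ftl1* and *Slc40a1* it lay in the 5′ UTR, and in *Tfrc* it occurred at 4 places in the 3′ UTR. Capitals mark the loop, and each line runs 5′ to 3′ along the mRNA.
Fth1, 5′ UTR, chr19:9982732-9982760, plus strand: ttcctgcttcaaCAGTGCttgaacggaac
Ftl1, 5′ UTR, chr7:45459779-45459807, minus strand: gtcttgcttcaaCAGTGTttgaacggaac
Slc40a1, 5′ UTR, chr1:45925465-45925493, minus strand: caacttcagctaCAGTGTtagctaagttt
Tfrc, 3′ UTR, chr16:32631219-32631247, plus strand: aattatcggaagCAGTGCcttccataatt
Tfrc, 3′ UTR, chr16:32631598-32631626, plus strand: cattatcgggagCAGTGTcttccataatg
Tfrc, 3′ UTR, chr16:32631663-32631691, plus strand: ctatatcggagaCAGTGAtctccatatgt
Tfrc, 3′ UTR, chr16:32631710-32631738, plus strand: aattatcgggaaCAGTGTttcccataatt
*Slc11a2*, *Ireb2*, *Alas1*, *Ppox* and *Fech* held no match to these letters, which says nothing of IREs of another form.

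Levels are given as FPKM, which counts the fragments of a gene relative to transcript length and to how many reads the library mapped, so that genes can be compared per length. The table holds no counts, and a depth read off the smallest increments of FPKM among short RNAs came to 17600000 to 18200000 reads per library. At this depth the 9 genes rested on about 330 reads (*Slc40a1*, the library with the fewest) to about 43490 reads (*Fth1*, the library with the most), and the counting error of a single value was at most 5.47%. The targeted gene *Slc22a3* had FPKM of 16.9 and 17.7 in Ctrl and of 9.07 and 9.50 in cKO, and fell by 0.83 on the log2 scale (limma, adjusted p = 0.000439). Genes that mark other cells also differed between the genotypes. Skeletal muscle markers summed to 2510 and 1687 FPKM in the Ctrl libraries against 11.9 and 9.3 in the cKO libraries. All 11 that were tested, of 13 listed, fell. All 8 lymphocyte markers and all 6 beige adipocyte markers rose. The white adipocyte list that checks the tissue was high in every library, with *Fabp4* at 13456 FPKM or above, and 4 of its 8 genes fell. In whole tissue, fewer cells of a type and less RNA per cell cannot be told apart.

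The question of the comparison was how loss of *Oct3* from adipocytes changed gene expression in cold-exposed ingWAT, here for the handling of iron and heme. *Slc40a1*, the iron exporter ferroportin, rose by 72.8% in mean FPKM, and *Tfrc*, the transferrin receptor, fell by 18.1%. The other 7 genes did not pass the test, and their log2 fold changes lay between -0.16 and 0.25. Thus 2 of 9 genes (22.2%) were called at an adjusted p under 0.05, 1 in each direction, where 25.8% of the 12658 genes tested were called (12% higher and 13.8% lower in cKO). The share of the 9 genes was near that background. Their median log2 fold change was -0.01, and that of all genes tested was -0.006. The cKO libraries lay outside the range of the Ctrl libraries for 8 of the 9 genes, 4 above and 4 below, while 66.5% of all genes tested were apart in this way. The call of *Slc40a1* was kept in all 11 alternative analyses. That of *Tfrc* was lost when any 1 of the 4 libraries was left out (adjusted p from 0.0821 to 0.219) and when genes with low values were not filtered out (adjusted p = 0.0843).

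**Figure D1:**
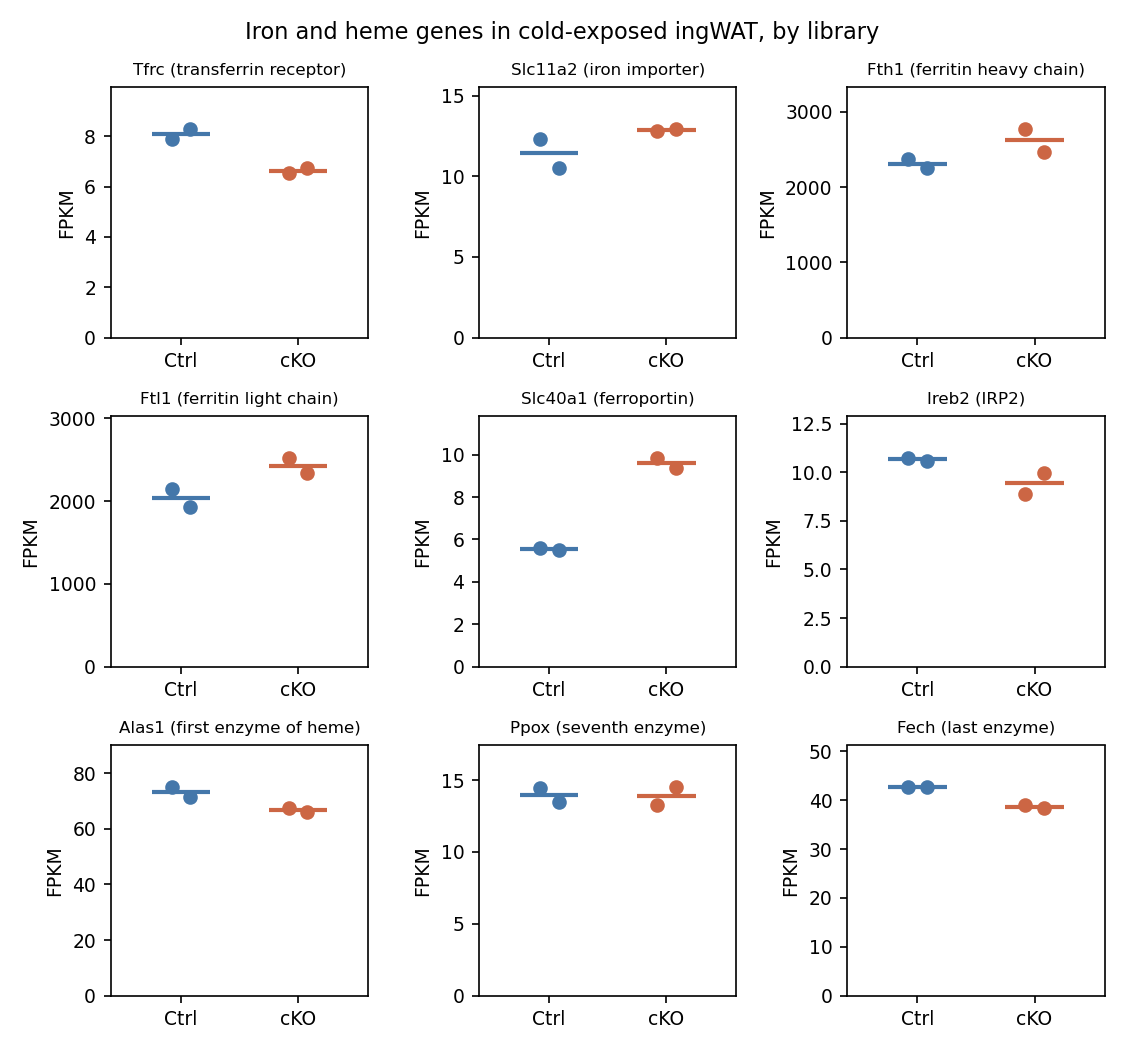
Expression of the 9 genes in each library. Each panel plots FPKM from 0 for 1 gene, with 1 point per library, 2 Ctrl in blue and 2 cKO in orange, and a line at the group mean. Relative to its level, *Slc40a1* shows the widest gap, with 5.59 and 5.52 FPKM in Ctrl against 9.83 and 9.37 in cKO. The points of *Ppox* overlap.

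Iron uptake was represented by *Tfrc* and *Slc11a2*. *Tfrc* (chr16:32608896-32632794), the receptor that carries transferrin-bound iron into cells, had FPKM of 7.91 and 8.28 in Ctrl and of 6.53 and 6.73 in cKO. Both cKO libraries were below both Ctrl libraries, and the gap between the groups was wider than the spread within either. The log2 fold change was -0.25 (SE 0.0725, 95% interval -0.42 to -0.08) with an adjusted p of 0.0416 in limma, just under the threshold. *Slc11a2* (chr15:100387898-100424209), also called DMT1, moves ferrous iron across membranes, including out of the endosomes that *Tfrc* fills. It had FPKM of 12.3 and 10.5 in Ctrl and of 12.8 and 12.9 in cKO. The cKO libraries were the higher ones, but the Ctrl libraries differed from each other by more than the nearer of them differed from cKO. The log2 fold change of 0.16 (95% interval -0.03 to 0.36) did not pass the test (limma, adjusted p = 0.199).

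The storage genes were the most abundant of the 9 by far. *Fth1* (chr19:9980600-9985111) encodes the ferritin heavy chain, which oxidizes iron as it enters the shell, and ranked 8 among all genes by mean FPKM in Ctrl. Its FPKM was 2377 and 2250 in Ctrl and 2770 and 2473 in cKO. *Ftl1* (chr7:45457944-45459886), the light chain, which helps iron mineralize inside the shell, ranked 11, with FPKM of 2153 and 1930 in Ctrl and of 2519 and 2343 in cKO. Both cKO libraries were above both Ctrl libraries for each chain, and the spread within at least 1 genotype was wider than the gap between them. The log2 fold changes were 0.18 for *Fth1* (95% interval -0.05 to 0.41, adjusted p = 0.23) and 0.25 for *Ftl1* (95% interval 0.02 to 0.48, adjusted p = 0.103), and neither passed the test in limma. Under quantile normalization they became -0.11 and -0.01, so no direction is drawn for ferritin.

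The balance of the ferritin chains was close to even in all libraries. The ratio of *Fth1* to *Ftl1* FPKM within a library was 1.10 and 1.17 in Ctrl and 1.10 and 1.06 in cKO. Together the chains made up 0.925% and 0.863% of the summed FPKM in Ctrl and 1.06% and 0.967% in cKO. The level of *Ftl1* is uncertain, since 90.6% of the 50-base windows of its transcript also occur in other genes, 17 in number. Reads of that length could have been divided among copies, although only 2 of the 17 were listed with FPKM. These were *Mir692-2* and *Mir692-3*, each with 1.09% of the windows and at most 0.54 FPKM in any library. For *Fth1* the share of windows found in other genes was 6.59% and for *Alas1* 11%, each with 1 other gene. For *Fech* it was 6.55%, and for the other 5 genes it was 0%.

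*Slc40a1* (chr1:45908070-45926532) encodes ferroportin, the iron exporter of vertebrate cells. It had FPKM of 5.59 and 5.52 in Ctrl and of 9.83 and 9.37 in cKO. The Ctrl libraries nearly coincided, and the lower cKO library was well above both. The log2 fold change was 0.69 (SE 0.0721, 95% interval 0.52 to 0.86) with an adjusted p of 0.00109 in limma, and over the alternatives it ranged from 0.66 to 0.78. Ferroportin is abundant in iron-recycling macrophages. Of the 10 macrophage markers, *Cd68* rose while *Csf1r*, *Mrc1*, *Cd163*, *Cd14* and *Vsig4* fell, and their summed FPKM was 789 and 716 in Ctrl and 785 and 814 in cKO. *Lyz2* made up most of this sum, and the other 9 markers summed to 196 and 172 in Ctrl and to 178 and 166 in cKO. Their part in the rise of *Slc40a1* was not tested.

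Set against each other within a library, where no scaling between libraries enters, the exporter and the receptor changed places. The ratio of *Slc40a1* to *Tfrc* FPKM was 0.707 and 0.667 in Ctrl and 1.51 and 1.39 in cKO. The receptor was thus the more abundant mRNA per length in both Ctrl libraries and the exporter in both cKO libraries. The mean ratio in cKO was 2.11 times that in Ctrl. The ratio of *Slc40a1* to *Slc11a2* was 0.454 and 0.525 in Ctrl and 0.767 and 0.725 in cKO, so that the exporter stayed below this importer throughout.

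*Ireb2* (chr9:54862658-54912534) encodes IRP2, an iron regulatory protein that binds IREs and is degraded when iron is plentiful. Its FPKM was 10.7 and 10.6 in Ctrl and 8.90 and 9.96 in cKO. Both cKO libraries were lower, and they differed from each other by more than the higher of them differed from Ctrl. The log2 fold change of -0.16 (95% interval -0.34 to 0.02) did not pass the test (limma, adjusted p = 0.164). *Aco1*, which encodes the other regulatory protein, IRP1, a cytosolic aconitase when it holds an iron-sulfur cluster, had 59.5 and 61.1 FPKM in Ctrl and 57.3 and 56.8 in cKO. Its log2 fold change of -0.08 did not pass either (limma, adjusted p = 0.319).

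By the hairpins shown above, *Slc40a1*, which rose, was the called one of the 9 genes with a match in the 5′ UTR, and *Tfrc*, which fell, the called one with matches in the 3′ UTR. Wider genes with a match moved in the opposite directions: *Alas2*, with a match in its 5′ UTR, fell by 0.34 on the log2 scale (limma, adjusted p = 0.0107), and *Bola3*, named here because 1 of its transcripts holds a match in the 3′ UTR, rose by 0.44 (adjusted p = 0.00466). The call of *Bola3* was not followed under the alternatives. Hairpins of the 5′ UTR act on translation, which these mRNA levels do not measure.

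**Figure D2:**
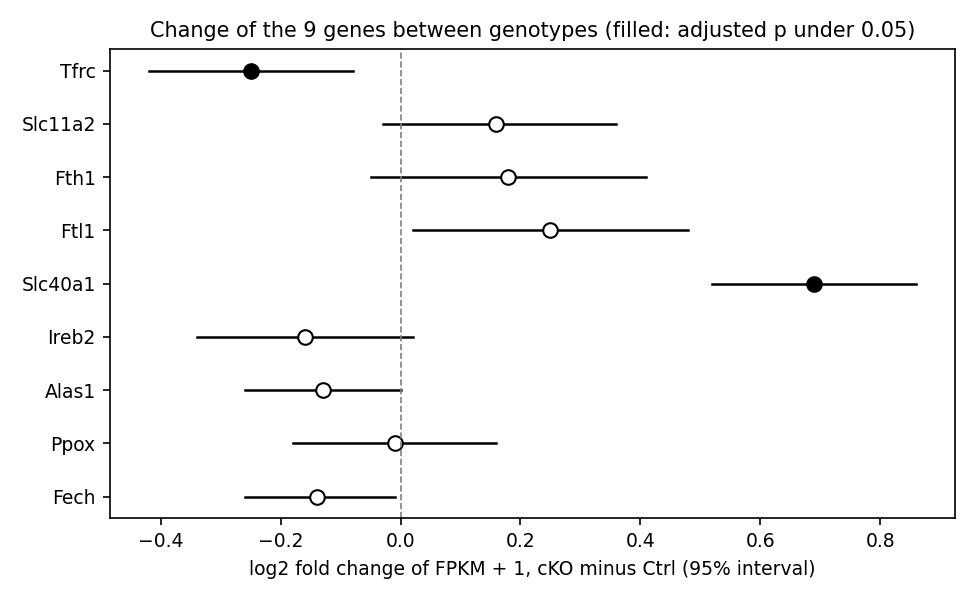
Change of the 9 genes between genotypes. Points give the log2 fold change of FPKM + 1 (cKO minus Ctrl) with its 95% interval from limma, filled where the adjusted p is under 0.05; *Slc40a1* at 0.69 and *Tfrc* at -0.25 are filled, and the other 7 points lie between -0.16 and 0.25.

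The heme genes were *Alas1*, *Ppox* and *Fech*. *Alas1* (chr9:106233455-106247954) encodes the first and rate-limiting enzyme of heme synthesis outside red cell precursors. It had FPKM of 74.9 and 71.3 in Ctrl and of 67.6 and 66.0 in cKO. Both cKO libraries were lower, with a log2 fold change of -0.13 (95% interval -0.26 to 0.00) that did not pass the test (limma, adjusted p = 0.142). *Ppox* (chr1:171276991-171281193) encodes the mitochondrial enzyme that oxidizes protoporphyrinogen, the step before iron is inserted. Its FPKM of 14.5 and 13.5 in Ctrl and 13.2 and 14.5 in cKO overlapped. The log2 fold change was -0.01 (95% interval -0.18 to 0.16, limma, adjusted p = 0.935), and its sign turned in 4 of the 11 alternatives. *Fech*, on chromosome 18, encodes ferrochelatase, which inserts iron into protoporphyrin. It had FPKM of 42.7 in each Ctrl library and of 38.9 and 38.4 in cKO. Libraries of a genotype nearly coincided and the groups were apart, yet the log2 fold change of -0.14 (95% interval -0.26 to -0.01) did not pass after adjustment (limma, adjusted p = 0.105). The intervals for *Alas1*, *Ppox* and *Fech* reached no lower than -0.26 and no higher than 0.16 on this scale. Each holds for its own gene and measures only the spread between these libraries, so larger changes are not excluded.

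Among the 7 enzymes of heme synthesis described here, 1 was called (14.3%, against 25.8% of all genes tested). Their median log2 fold change was -0.02. *Urod*, which trims the side chains of the porphyrin ring, had 47.3 and 45.3 FPKM in Ctrl and 57.9 and 53.9 in cKO, and rose by 0.27 (limma, adjusted p = 0.0196). It lost the call in 5 of the 11 alternatives. *Alad*, which joins the first precursors, had a log2 fold change of -0.11. *Uros*, which closes the ring, had one of -0.00 and *Cpox*, which acts before *Ppox*, -0.02. None of these 3 passed.

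Levels along the pathway spanned more than the genotypes did. *Alas1* was highest in both genotypes, followed in Ctrl by *Urod* (mean FPKM 46.3), *Fech* (42.7), *Alad* (16.9), *Uros* (14.9), *Ppox* (14.0) and *Cpox* (5.33). Only *Uros* and *Ppox* had overlapping Ctrl libraries among neighbours in this order. In cKO no neighbours of the order overlapped. *Cpox* was the scarcest of these mRNAs per length in every library.

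**Figure D3:**
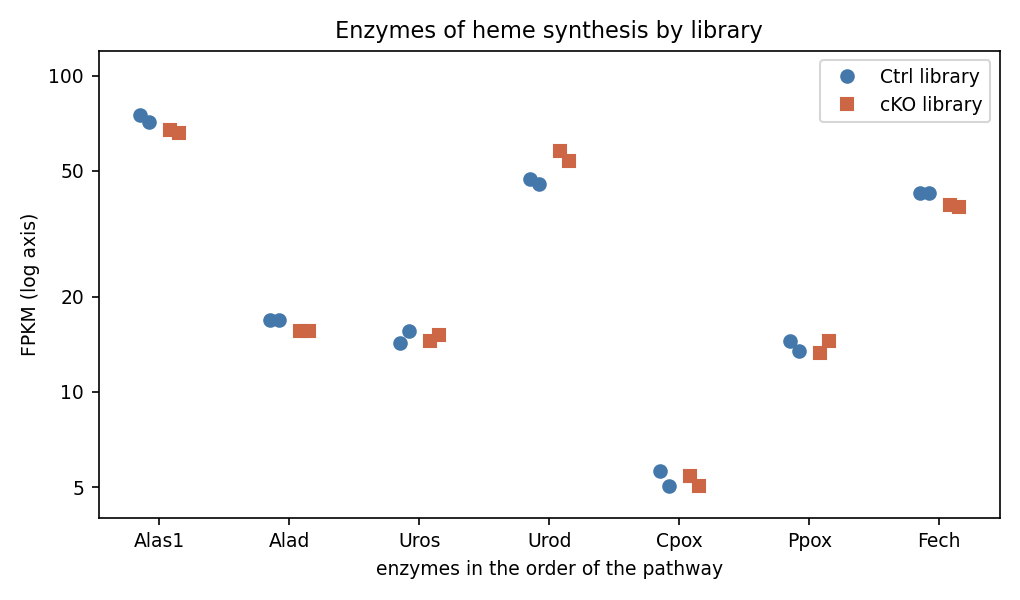
The 7 heme synthesis enzymes described, in the order of the pathway. FPKM per library is plotted on a log axis, with circles for Ctrl and squares for cKO. The libraries of *Urod* are apart between genotypes (47.3 and 45.3 in Ctrl against 57.9 and 53.9 in cKO). The span from the highest enzyme to the lowest exceeds the difference between genotypes of any of them.

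Over all 9 genes the order of mean FPKM in Ctrl was *Fth1* (2313), *Ftl1* (2041), *Alas1* (73.1), *Fech* (42.7), *Ppox* (14.0), *Slc11a2* (11.4), *Ireb2* (10.7), *Tfrc* (8.10) and *Slc40a1* (5.55). Neighbours were apart in both Ctrl libraries except *Slc11a2* and *Ireb2*. In cKO *Fth1* and *Ftl1* overlapped, and *Slc40a1* (9.60) moved from the last place to the level of *Ireb2* (9.43), whose libraries it overlapped.

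Around these genes, 101 further iron and heme genes of the table were sorted into 9 lists by role, and 94 of them were tested. Of these, 36 were called (38.3%, against 25.8% of all genes tested), 21 higher and 15 lower in cKO, and their median log2 fold change was 0.04, against -0.006 over all genes tested. The count fell to 10 without Ctrl replicate 1, to 18 without Ctrl replicate 2 and to 17 without a filter on low values. Of the 25 called genes named by the rule given with the methods, 8 stayed called in every alternative that tested them, and 17 lost the call in at least 1. The 8 were *Trf*, *Steap4*, *Scara5*, *Lcn2*, *Heph*, *Hfe2*, *Ciapin1* and *Hmox1*.

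Among the 15 uptake genes tested, 6 fell, 2 rose and 7 were not called, with a median of -0.24. The share called was 53.3%, where 25.8% of all genes tested were called, 13.8% lower and 12% higher. Unlike *Tfrc*, *Tfr2*, the gene of transferrin receptor 2, was among those that rose. It had 2.20 and 2.22 FPKM in Ctrl and 4.49 and 3.62 in cKO (log2 fold change 0.65, limma, adjusted p = 0.00632). Its call was not followed under the alternatives. *Trf*, the iron carrier of plasma, had 988 and 934 FPKM in Ctrl and 506 and 568 in cKO, a fall of 44.1% in the mean (log2 fold change -0.84, limma, adjusted p = 0.000858). *Scara5*, a receptor for ferritin, fell by 1.05 on the log2 scale, and *Steap4*, a metalloreductase of adipocytes, fell by 0.81. *Lcn2*, which binds bacterial iron carriers and is made by neutrophils among other cells, rose from 1.06 and 1.42 FPKM in Ctrl to 4.36 and 4.73 in cKO, a log2 fold change of 1.31. The 7 neutrophil markers summed to 8.8 and 9.9 FPKM in Ctrl and to 22.2 and 21.7 in cKO. *S100a8* and *S100a9* made up most of this sum. Only 3 of the 7 were high enough to be tested, and these 3 rose. Of the rest, *Ngp* was higher in both cKO libraries, while *Elane*, *Ly6g* and *Mpo* overlapped between the genotypes. *Ly6g* and *Mpo* were at 0 in some libraries. The part of these markers in the change of *Lcn2* was not tested.

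In storage, 1 of 4 genes was called (25%, near the 25.8% of all genes tested), *Hspb1*, a small heat shock protein, which rose by 0.27. Among the 5 tested genes of export and its systemic control, 4 fell and none rose (80% called, against 25.8% of all genes tested). They included the ferroxidases *Heph* and *Cp*, which oxidize the iron that ferroportin releases. *Heph* had 12.9 and 13.0 FPKM in Ctrl and 6.19 and 7.09 in cKO (log2 fold change -0.87, limma, adjusted p = 0.000724), and *Cp* fell by 0.40. *Slc40a1* itself moved the other way. *Hfe2*, the hemojuvelin gene, went from 8.03 and 5.50 FPKM in Ctrl to 0.09 in each cKO library. Hemojuvelin is expressed in skeletal muscle, whose markers were at 1687 FPKM or above in Ctrl and at 11.9 or below in cKO, and their part in this fall was not tested. None of the 7 regulators tested in limma was called, at an adjusted or an unadjusted p under 0.05. At the adjusted threshold 25.8% of all genes tested were called. The log2 fold changes of the 7 regulators lay between -0.11 and 0.14.

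**Figure D4:**
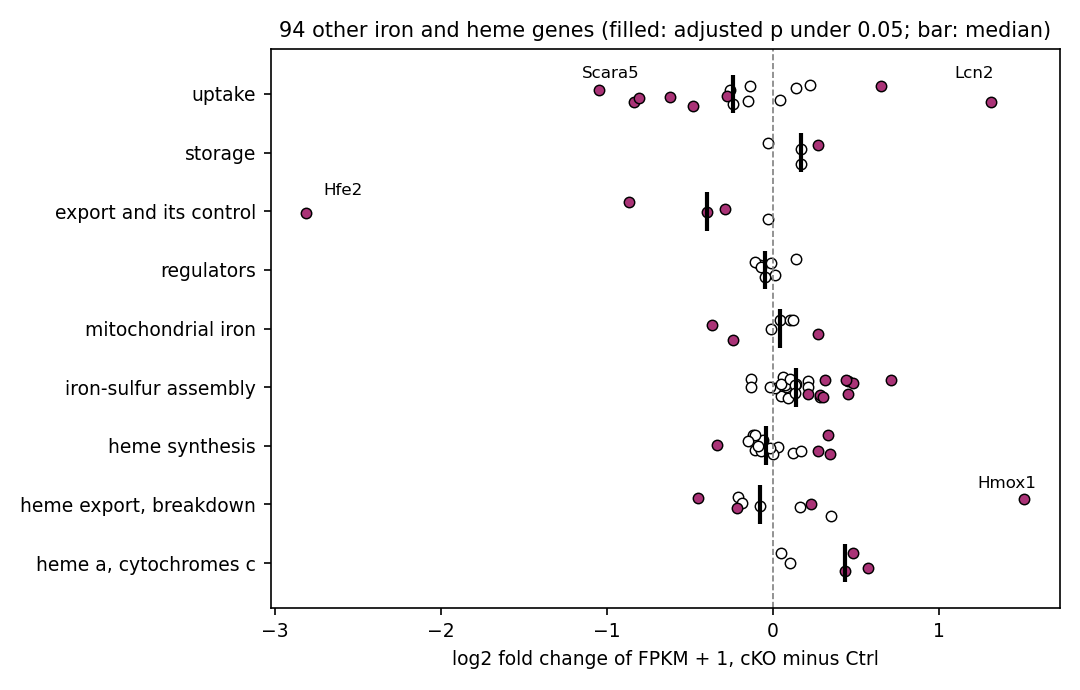
Log2 fold change of FPKM + 1 (cKO minus Ctrl) of the 94 other iron and heme genes tested, by list. Each point is 1 gene, filled where the adjusted p is under 0.05, and the bar is the median of the list; the median was 0.13 for iron-sulfur assembly, 0.43 for heme a and cytochromes c and -0.24 for uptake.

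Of 26 genes of iron-sulfur cluster assembly, 9 rose and none fell (34.6% called, where 12% of all genes tested rose and 13.8% fell), with a median of 0.13. *Ciapin1*, an electron donor of the cytosolic assembly pathway, rose by 0.71, *Hspa9*, a mitochondrial chaperone, by 0.48 and *Fam96a*, a cytosolic targeting factor, by 0.45. In the short list for heme a and c-type cytochromes 3 of 5 rose (60%), with a median of 0.43: *Cyc1*, cytochrome c1, by 0.57, *Cycs*, cytochrome c, by 0.48 and *Cox10*, which makes the precursor of heme a, by 0.43. Of 7 mitochondrial iron genes, with a median of 0.04, *Abcb8*, a transporter of the inner membrane, rose by 0.27, while *Sfxn2* and *Sfxn1*, sideroflexins, fell by 0.37 and 0.24. The importer *Slc25a37* (mitoferrin) had 8.37 and 8.47 FPKM in Ctrl and 8.34 and 9.05 in cKO, a log2 fold change of 0.04 that did not pass (limma, adjusted p = 0.722). Beige adipocyte markers, which summed to 1475 and 1740 FPKM in Ctrl and to 4580 and 3874 in cKO, rose beside the called genes of iron-sulfur assembly and of the cytochromes but not beside the sideroflexins, and their part was not tested.

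Among the 16 other genes of heme synthesis and its transport, 3 rose and 1 fell (25%, near the 25.8% of all genes tested), with a median of -0.04. Beside *Urod*, the mitochondrial carriers *Slc25a39* and *Tmem14c* rose by 0.34 and 0.33. *Alas2*, the form of *Alas1* used by red cell precursors, was at 12.1 and 11.9 FPKM in Ctrl and at 8.98 and 9.52 in cKO and fell by 0.34. The 11 erythroid markers, of which *Alas2* is one, summed to 3008 and 2851 FPKM in Ctrl and to 2413 and 2592 in cKO, nearly all of it globin. The 6 other defining markers of red cell precursors, among them *Klf1*, were under 1 FPKM in every library, with *Ahsp* at 0 in 3 of the 4. The part of these cells in the fall of *Alas2* was not tested.

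In heme breakdown, *Hmox1*, heme oxygenase 1, which opens the heme ring and frees its iron, had 29.1 and 26.7 FPKM in Ctrl and 92.3 and 71.4 in cKO. Both cKO libraries were far above Ctrl, although they differed from each other, and the mean was 2.94 times that of Ctrl (log2 fold change 1.51, 95% interval 1.24 to 1.78, limma, adjusted p = 0.000396). Its constitutive relative *Hmox2* rose by 0.23. *Abcg2*, which exports heme and other molecules, fell by 0.45, and *Slc48a1*, which returns heme from lysosomes, fell by 0.22. In all, 4 of 9 tested genes of heme export and breakdown were called (44.4%, against 25.8% of all genes tested), 2 in each direction. *Hmox1* and *Slc40a1*, which are both abundant in macrophages that recycle iron, rose beside the mixed macrophage markers given above, and the part of these cells was not tested for *Hmox1* either.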

How the data were processed

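Polyadenylated RNA of ingWAT from 2 Ctrl and 2 cKO mouse libraries was read by the authors as single-end sequences. The submitters' processing notes name HISAT2 2.0.4, RSEM 1.2.12 and the mm10 build. The authors deposited FPKM per gene and library, with no scaling between libraries stated, and no per-sample column was left unused (0). Samples were grouped by their titles. The 12658 genes whose FPKM averaged 1 or more across libraries entered a two-sided limma test (version 3.58.1, R 4.3.3) of log2(FPKM + 1), with eBayes and a variance trend and Benjamini-Hochberg adjustment over all of them at 0.05. The fold change understates that of low genes. The step was checked on simulated data. No count test was run, because counts were not recovered for genes in general: depth came from short RNAs, of which 82.8% to 88.4% of the values used were whole reads within 0.1, and intervals of counting cover counting error only. Alternatives changed the pseudocount to 0.1, dropped the filter or raised it to 5, scaled libraries by median of ratios or by quantiles, added a replicate block, dropped the trend, or left out each library.

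The members, lists and tests were chosen with earlier results of these data known. Named were the 9 members, in each role list the called genes with the largest rise and the largest fall and up to 2 further called genes by size, and *Alad*, *Uros*, *Urod*, *Cpox*, *Hmox1*, *Aco1*, *Trf* and *Slc25a37* whatever their values; some items that the rule or the lists hold are not reported here. *Tfr2* and *Bola3* were named outside this rule. Of 103 symbols in the role lists 101 were in the table, 2 of them found by gene ID. Gene positions came from RefSeq (GRCm38.p6), and hairpins and shared windows from GENCODE M21 transcripts. Lists of macrophage, erythroid, skeletal muscle, white adipocyte, beige adipocyte, lymphocyte, endothelial and neutrophil markers were summed per library, and of the 6 endothelial markers 3 fell and none rose.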

Additional observations from a re-analysis of the deposited data

How the results depend on the processing

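With 2 libraries in each genotype a call rests on small spreads, and FPKM without counts limits what can be said of the rarer genes. When a library was left out, its genotype kept a lone library, which was assumed to vary like the others. The number of the 9 genes called, 2, was 1 without each library in turn (range 1 to 1) and 1 with no filter on low values. The number of wider genes called, 36, ranged from 10 to 28 without each library in turn and was 17 with no filter, and that of all genes, 3269, ranged from 877 (without Ctrl replicate 1) to 2429 and was 1762 with no filter. *Tfrc*, at -0.25, stayed lower at -0.28 to -0.22 but lost the call without each library, and at -0.25 with no filter. Quantile normalization turned *Fth1* to -0.11 and *Ftl1* to -0.01. *Ppox* turned to 0.01 under median-of-ratios scaling and to 0.00 under quantile normalization, and ranged from -0.07 to 0.05 without each library. Of the wider genes named, *Uros* turned to 0.01 under median-of-ratios scaling and 0.00 under quantile normalization and *Cpox* to 0.02 under quantile normalization. Without each library *Uros* ranged from -0.06 to 0.05, *Cpox* from -0.09 to 0.05 and *Slc25a37* from -0.01 to 0.09. All of these uncalled genes stayed uncalled, and the causes were not tested. Of the 99 values of the 9 genes under the alternatives, 88 kept their direction and side of the threshold. Among those of the wider genes named by the rule, 263 did so, 57 lost the call and 8 turned direction. Quantile normalization moved the split of all calls from 1519 higher and 1750 lower to 1713 and 1657, with a median change of all genes of 0.018 against -0.006.

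With the replicate number as a block, 2 of the 9 genes, 37 wider genes and 3383 of all genes were called, and no call on the 9 genes changed. The samples share only a number, since nothing in the labels ties same-numbered libraries and their deviations had a correlation of 0.015 over 12658 genes.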
